A study of Mus musculus with 73 samples.

Results

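The genes described here are 9 genes that store, export, import or sense iron: the ferritin chains Fth1 and Ftl1, the exporter Slc40a1, the haem-degrading enzyme Hmox1, the haemoglobin scavenger receptor Cd163, the transferrin receptor Tfrc, the metal transporters Slc11a1 and Slc11a2, and the RNA-binding sensor Ireb2. They were chosen by name with the measured values of these cells in view, so their levels are given as a description and no test was made of them. All 9 symbols were found among the 23994 mouse gene rows, and each was read in all 73 cells.

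The cells came from 1 mouse of the B6 background, aged 10 weeks and carrying a Csf1r-GFP reporter, in which green fluorescent protein marks cells that use the gene of the receptor for macrophage colony-stimulating factor. The left lung had been removed 7 days earlier, and immune cells positive for CD45, for the reporter and for F4/80 were sorted from the right lobes; Ly6G stands in the sort without a plus or minus. Every cell carried the reporter and came from the operated animal. No unoperated lung was analysed here, so nothing below measures an effect of the operation, and cells of 1 mouse are not replicates.

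Ferritin is a hollow shell of heavy chains, which oxidise iron, and light chains, which help to lay it down as a mineral. Lung macrophages take up iron with dying cells and inhaled particles and keep it in this shell, while ferroportin, the product of Slc40a1, is the known route of iron out of a cell. When iron is scarce, the proteins encoded by Aco1 and Ireb2 bind a hairpin called the iron-responsive element: bound in the 5′ UTR it blocks translation of ferritin and ferroportin mRNA, and bound in the 3′ UTR it protects Tfrc mRNA from decay. Much of ferritin control therefore acts after the mRNA is made, and only mRNA was measured here.

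The hairpins are printed because they tie the storage, export and uptake genes to one control. A pattern search of the GENCODE M21 transcripts (build GRCm38, the same as mm10) looked for C, then 5 bases, the loop CAGTGN, and 5 bases that pair with the first 5, G-U pairs allowed. It was run on the transcript strand only, and the capitals mark the 6-base loop. The ferritin and ferroportin copies lie in the 5′ UTR, at chr19:9982731-9982760 (plus strand), chr7:45459779-45459808 (minus strand) and chr1:45925465-45925494 (minus strand).
Fth1: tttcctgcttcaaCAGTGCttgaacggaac
Ftl1: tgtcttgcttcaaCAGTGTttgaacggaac
Slc40a1: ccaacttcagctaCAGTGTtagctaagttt

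In Tfrc the same search found 4 copies, all in the 3′ UTR on the plus strand of chromosome 16, the first at chr16:32631218-32631247 and the last at chr16:32631709-32631738. Those 2 are printed.
Tfrc first copy: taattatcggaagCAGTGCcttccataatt
Tfrc last copy: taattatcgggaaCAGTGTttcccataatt

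The pattern was found in the 5′ UTR of 28 of 20561 genes (0.136%) and in the 3′ UTR of 127 of 20954 (0.606%). The other 5 genes, Hmox1, Cd163, Slc11a1, Slc11a2 and Ireb2, held no match to these letters, which says nothing about binding. The search asked for 5 unbroken pairs next to the loop, so a hairpin with an unpaired base there would be missed. A lack of a match therefore does not show that a gene lacks the element. A match is a description of the sequence and not a measured site.

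Depth differed between cells. Estimated mouse fragments per cell ran from 347003 to 3485929 with a median of 1408833, and genes detected at FPKM (fragments per kilobase of transcript, scaled for sequencing depth) of 1 or more ran from 1044 to 3745 with a median of 2290. Since FPKM is divided by transcript length, levels of different genes can be set side by side. Of 9 measured red cell genes, Hba-a1 and Hbb-bs among them, 0 reached an FPKM of 1 in any cell, and their summed FPKM was at most 0.971. Csf1r, the receptor behind the sort, was detected in 65 of 73 cells, and Emr1, which encodes F4/80, in 41. In 3 cells (numbers 2, 38 and 54) at least 3 endothelial markers such as Pecam1 reached an FPKM of 10, and the ferritin results below that changed most without them are also given without them.

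The ferritin genes were high in nearly all cells, and the other genes were sparse. Fth1 was detected in 73 of 73 cells (95% exact Clopper-Pearson interval 95.1 to 100) and its FPKM ran from 96.2 through a median of 5569 to 71014, with a mean of 8081 ± 9842 (SD, n = 73 cells). For Ftl1, also found in every cell, FPKM ran from 279 through a median of 5699 to 52463, with a mean of 8133 ± 8489 (SD, n = 73 cells). In the median cell each ranked sixth among all genes by FPKM (rank 6 for both). The 2 chains together held a median of 2.72% of a cell's summed mouse FPKM, with a range of 0.531% (cell 54) to 18.8%; the lowest share in a cell without endothelial markers was 0.630%. Counted as fragments, where short transcripts weigh less, the median share was 1.6%.

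The heavy and light chain genes stood at nearly the same level. The ratio of Fth1 to Ftl1 had a median of 1.03, 39 of 73 cells held more Fth1 than Ftl1, and 51 cells lay within 2-fold of equality. The ratio still spread from 0.0462 in cell 2, a cell with endothelial markers, to 5.49; the next lowest was 0.130 in cell 79. The Ftl1 level carries an uncertainty that Fth1 carries less: 7 annotated genes or pseudogenes share at least 50 stretches of 31 bases with Ftl1 transcripts, Ftl1-ps1 sharing 80.6% of them, against 1 for Fth1 (Gm6977, 11.3%). The deposited table has no row under any of these names, and how such reads were shared out is not given in the sources used here.

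**Figure D1:**
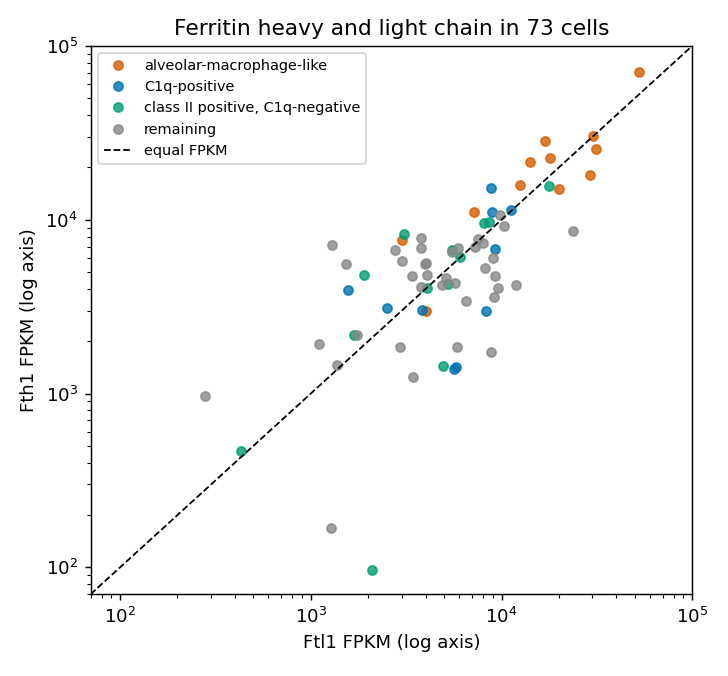
Fth1 FPKM (vertical log axis) against Ftl1 FPKM (horizontal log axis) in each of 73 cells, coloured by class of cells, with a dashed line at equal FPKM. Points lie along the line, alveolar-macrophage-like cells at its upper end up to 71014 and 52463, and cell 2 lies farthest below it with a ratio of 0.0462.

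On the FPKM scale each chain was closer to the other, across cells, than to any other gene compared. Over 73 cells the Spearman rho of Fth1 with Ftl1 was 0.65 (Pearson r 0.71 on log2(FPKM + 1)), first of 1284 genes detected in at least 37 cells from either side, where the median gene had a rho of 0.08 with Fth1 and 0.10 with Ftl1. This is a description: the cells share 1 animal and 1 preparation, and differ in depth. With each cell's FPKM rescaled to the same total, rho was 0.57, and Ftl1 was still first for Fth1, while Fth1 was second for Ftl1 after Plin2.

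The relation was lower once the alveolar-macrophage-like cells, described below, were left out. Outside them rho was 0.50 over 61 cells, and 0.37 after rescaling, eighth of the genes for Fth1 (rank 8) and ninth for Ftl1 (rank 9). Within the 12 alveolar-macrophage-like cells it was 0.81 (rank 4 for Fth1 and rank 7 for Ftl1). After rescaling it was 0.62 there (rank 15 for Fth1 and rank 26 for Ftl1). Fth1 varied little with the estimated mouse fragments of a cell (rho 0.10) and more with mouse fragments per spike-in fragment (0.23), a measure of RNA content. Over all cells the rho of Fth1 was 0.33 with genes detected and 0.35 with the summed mouse FPKM of a cell. For Ftl1 the values in the same order were 0.31, 0.41, 0.42 and 0.49. The part of these measures in the relation of the chains was not tested.

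After Ftl1, the genes most like Fth1 over all cells were Anxa5 (rho 0.54), an annexin that binds phosphatidylserine, Ccl6 (0.53), a macrophage chemokine, Abcg1 (0.51), a cholesterol exporter, and Atp6v0e (0.48), a subunit of the lysosomal proton pump. After Fth1, the most like Ftl1 were Pfn1 (0.62), the actin-binding profilin, Plin2 (0.59), a lipid droplet coat protein, Ccl6 (0.58) and Aprt (0.56), an enzyme of adenine salvage. Outside the alveolar-macrophage-like cells the list changed: Fth1 was then closest to the ribosomal genes Rps27 (0.59) and Rpl24 (0.52), and Ftl1 to Hnrnpk (0.55), an RNA-binding protein, and Pfn1 (0.55). Only Ccl6 stood among the first 5 for both chains over all cells, apart from the chains themselves. The lists also depended on the scale. With FPKM rescaled to one total per cell, Chil3 took the place of Atp6v0e among the first 5 for Fth1. For Ftl1, Ctsd and Gltp took the places of Pfn1 and Aprt.

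To ask how the iron genes varied between kinds of cell, the cells were clustered without 70 iron genes. A cluster of 12 cells (16.4%, interval 8.79 to 26.95) held 6 alveolar macrophage markers among its 10 leading genes, such as Ear2, Chil3 and Car4. It is called alveolar-macrophage-like, after the resident phagocytes of the air spaces. Chil3 and Ear2 were found in all 12 cells but also in 36 and 16 of the 61 others. Of the same marker list, Plet1 and Atp6v0d2 were found in all 12 and in 5 and 4 of the 61. Siglec5 was found in 4 of the 12 and 3 of the 61. The other 61 cells were cut by rule into 10 C1q-positive cells (at least 2 C1q genes at FPKM of 10 or more), 13 cells positive for class II genes but not C1q, and 38 remaining cells. The last 3 classes are ranges set by a threshold, not cell types.

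Alveolar-macrophage-like cells held the most ferritin mRNA. Their Fth1 FPKM ran from 2996 (cell 91) through a median of 19779.7 to 71014 (cell 6), against 96.2 through 4772 to 15678 in the other 61 cells. The ranges overlapped, but 8 of the 12 lay above every other cell, and 0 other cells lay above the median of the 12. Mean FPKM was 22488 ± 17337 (SD, n = 12 cells) against 5247 ± 3384 (SD, n = 61 cells), 4.29 times as high, and 3.45 times without cell 6.

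Ftl1 followed with more overlap. Its FPKM ran from 3016 (cell 85) through 17466 to 52463 in the 12 cells, and from 279 through 5232 to 23761 in the others. Here 4 of the 12 lay above every other cell, and 2 other cells, numbers 83 and 64, lay above the median of the 12. The means were 19894 ± 14086 (SD, n = 12 cells) and 5819 ± 4123 (SD, n = 61 cells), a ratio of 3.42, or 2.91 without cell 6.

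On the scale of mean log2(FPKM + 1) the difference was 2.17 for Fth1 and 1.76 for Ftl1. Of 6151 genes detected in at least 8 cells, 18.2% were higher in the alveolar-macrophage-like cells by 1 or more, and 9.49% lower. Of the 9 iron genes 5 met that detection rule, 2 were higher (both ferritin chains), 1 was lower (Slc11a1), and Hmox1 and Ireb2 were within the bound. Fth1 ranked 324 and Ftl1 498 among the 6151 differences, and the median difference over all of them was 0.10. As a share of summed mouse FPKM the 2 chains held a median of 7.60% (2.91% to 18.8%) in the alveolar-macrophage-like cells and 2.37% (0.531% to 7.83%) in the others.

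Other measures moved with this split. The alveolar-macrophage-like cells had fewer mouse fragments (median 1057394 against 1421352), more detected genes (2739.5 against 2174) and more mouse fragments per spike-in fragment (2.01 against 1.70). The differences were 2.16 and 1.76 with every cell thinned to 347003 mouse fragments, and 2.08 and 1.68 after rescaling FPKM to one total per cell. Endothelial markers were at 0 in all 12 cells (0 of 10 detected), and 3 of 9 neutrophil markers, 3 of 10 dendritic markers, 2 of 10 epithelial markers and 2 of 9 lymphoid markers were detected in at least 1 of them. Of these, Cd2 of the lymphoid list was found in 9 of 12 cells (mean FPKM 228) against 6 of 61 (13.3), and Cd24a of the dendritic list in 7 of 12 (91.6) against 10 of 61 (16.7). The summed lymphoid markers ran from 0 through a median of 118 to 705 in the 12 cells and from 0 through 0 to 651 in the others, while Cd3e, Cd79a and Ms4a1 were detected in no cell. The part of these measures in the ferritin levels was not tested.

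**Figure D2:**
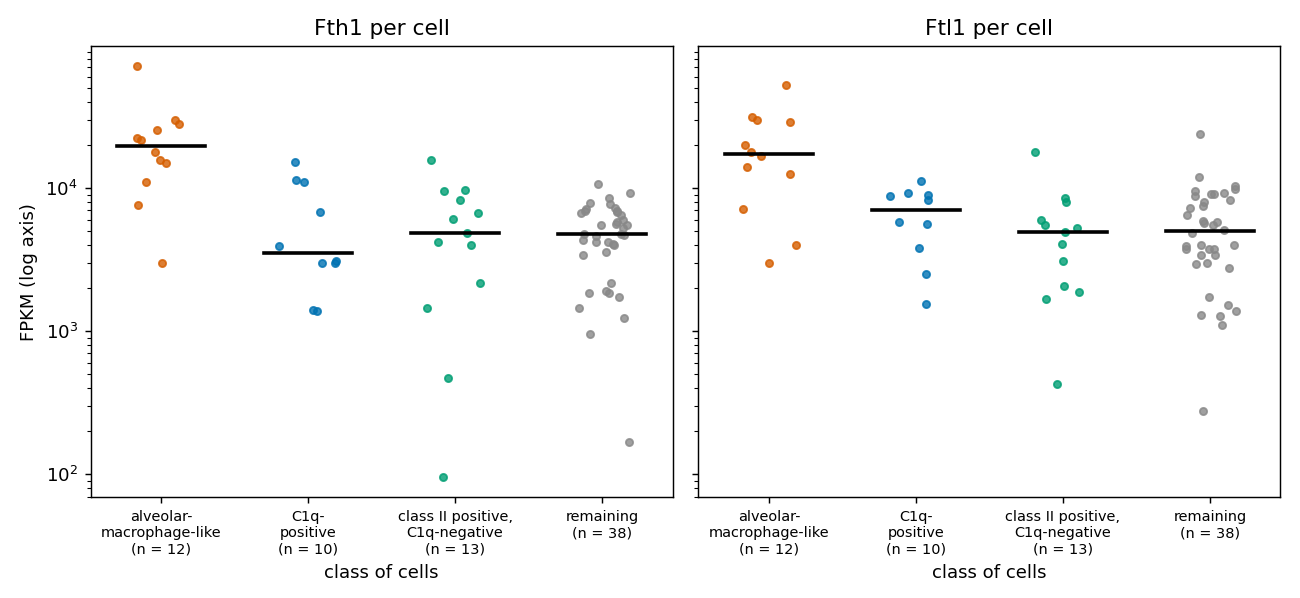
FPKM of Fth1 (left) and Ftl1 (right) on a log axis, 1 point per cell, by class of cells, with a bar at each class median. The alveolar-macrophage-like medians are 19779.7 and 17466, and the other 3 classes overlap throughout, with medians from 3541 to 4831 for Fth1 and from 4941 to 7053 for Ftl1.

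Among the other classes the order of levels was within their spread. Fth1 had a mean of 6031 ± 4854 (SD, n = 10) in C1q-positive cells, 5632 ± 4403 (SD, n = 13) in class II positive cells and 4908 ± 2493 (SD, n = 38) in the remaining cells. Ftl1 had means of 6582 ± 3210, 5340 ± 4471 and 5783 ± 4282 in the same order. For Fth1 the order of the means was not the order of the medians (3541, 4831 and 4799). None of these neighbours differed by more than 1 SD.

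The cells with the least Fth1 were spread over 2 classes. Cell 2 (FPKM 96.2), cell 79 (167) and cell 54 (469) were the lowest 3, and cell 10 (962) and cell 58 (1238) came next. Cells 2 and 54 held 5 and 8 endothelial markers at an FPKM of 10 or more. In cells 79, 10 and 58 none of the endothelial, epithelial, lymphoid, red cell and neutrophil lists had 3 markers at that level. Cell 2 kept an Ftl1 level of 2085, and cell 54 was low in both chains (Ftl1 429). Without the 3 cells with endothelial markers the lowest Fth1 was the 167 of cell 79, the mean of Fth1 was 6604 instead of 5632 in class II positive and 6548 instead of 6031 in C1q-positive cells, and the difference between alveolar-macrophage-like and other cells was 2 for Fth1 and 1.69 for Ftl1.

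Slc40a1, the gene of the iron exporter, was almost without reads. It reached an FPKM of 1 in 1 of 73 cells (1.37%, interval 0.0347 to 7.40), the alveolar-macrophage-like cell 12, at an FPKM of 1.14 from 5 fragments, and those were all its fragments in the data. Outside that cluster 0 of 61 cells were positive, and with 0 found the share could still reach 4.92%. A single fragment was worth an FPKM of 0.126 in the median cell, so low levels could be missed. Cell 12 held Fth1 at 11128 and Ftl1 at 7202, below the medians of its cluster.

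Hmox1, whose enzyme frees iron from haem, was found in 24 of 73 cells (32.9%, interval 22.3 to 44.9). Its FPKM ran from 0 through a median of 0 to 451 (cell 16), with 381 in cell 93 and 349 in cell 1 as the next highest. The 3 highest cells thus lay outside the alveolar-macrophage-like cluster, whose highest was cell 17 at 135.

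By class Hmox1 was found in 5 of 12 cells of the alveolar-macrophage-like cluster (41.7%, interval 15.2 to 72.3), 1 of 10 C1q-positive cells (10%, interval 0.253 to 44.5), 4 of 13 class II positive cells (30.8%, interval 9.09 to 61.4) and 14 of 38 remaining cells (36.8%, interval 21.8 to 54.01). All 4 intervals overlap. Mean FPKM was 25.03 ± 46.3 (SD, n = 12) in alveolar-macrophage-like cells and 23.3 ± 86.2 (SD, n = 61) in the others. The difference of mean log2(FPKM + 1) was 0.98, just under the bound of 1, and lay above it at 1.08 after rescaling, at 1.69 with a pseudocount of 0.1 and at 1.12 without cell 6. Leaving out any of 19 single cells brought it past the bound, and over all such omissions it ran from 0.54 to 1.18. The alveolar-macrophage-like mean fell to 15.06 without its highest cell, number 17. That of the others fell to 16.13 without theirs, number 16. With cells thinned to one depth the log2 difference was 0.91, and Hmox1 was found in 22 cells.

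Cd163, which takes up haemoglobin bound to haptoglobin, was found in 1 cell only, the class II positive cell 95, at an FPKM of 156 from 2125 fragments. Another 22 cells held traces under an FPKM of 1, with a median of 2 fragments and at most 12. Of the 10 C1q-positive cells, a class set by the C1q genes alone, 0 reached an FPKM of 1, so that a share of up to 30% remains possible. A value above 0 was found in 5 of these 10 cells and in 3 of 13 class II positive cells. It was found in 13 of 38 remaining and 2 of 12 alveolar-macrophage-like cells.

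The uptake genes differed from one another. Tfrc, the receptor for iron-loaded transferrin, was detected in 2 cells: cell 91, alveolar-macrophage-like, at 23.9 and cell 13, class II positive, at 2.83. Cell 91 was also the alveolar-macrophage-like cell with the least Fth1 (2996), an observation of 1 cell. In all cells together Tfrc had 232 fragments.

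Slc11a1, also called NRAMP1, pumps iron and manganese out of the phagosome and was the most widespread transporter of the 9 genes. It was found in 25 of 73 cells (34.2%, interval 23.5 to 46.3), with FPKM from 0 through a median of 0 to 418 (cell 27), and 312 in cell 69 next. None of the 12 alveolar-macrophage-like cells reached an FPKM of 1 (0 of 12, leaving room for a share of up to 25%), and 1 of them held a trace. In the other cells it was found in 5 of 10 C1q-positive (50%, interval 18.7 to 81.3), 4 of 13 class II positive (30.8%, interval 9.09 to 61.4) and 16 of 38 remaining cells (42.1%, interval 26.3 to 59.2).

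Thus Slc11a1 and the ferritin genes differed in opposite directions between the alveolar-macrophage-like and the other cells. Mean Slc11a1 FPKM was 0.0287 ± 0.0995 (SD, n = 12) against 40.8 ± 89.4 (SD, n = 61), a difference of mean log2(FPKM + 1) of -2.24. With all cells thinned to 347003 mouse fragments the difference was -2.23 and 25 cells were still positive. Its place among the 6151 differences was 6030, near the lower end.

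Slc11a2, or DMT1, carries iron out of the endosome after transferrin uptake. It was found in 5 of 73 cells (6.85%, interval 2.26 to 15.3), at 157 in cell 27, 83.5 in cell 94, 78.4 in cell 32, 42.4 in cell 63 and 1.65 in cell 42. None of the 5 was alveolar-macrophage-like, where 0 of 12 allows up to 25%. The cell with most Slc11a2, cell 27, was also the cell with most Slc11a1.

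Ireb2, one of the proteins that bind the hairpins printed above, was found in 10 of 73 cells (13.7%, interval 6.77 to 23.8). Its FPKM in those 10 ran from 1.08 in cell 48 to 133 in cell 62, with 121 in cell 44 as the next highest. It was present in 1 of 12 alveolar-macrophage-like cells (8.33%, interval 0.211 to 38.5), 2 of 10 C1q-positive, 2 of 13 class II positive and 5 of 38 remaining cells. A single fragment was worth 0.0718 in the median cell, and 10 further cells held traces under an FPKM of 1.

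**Figure D3:**
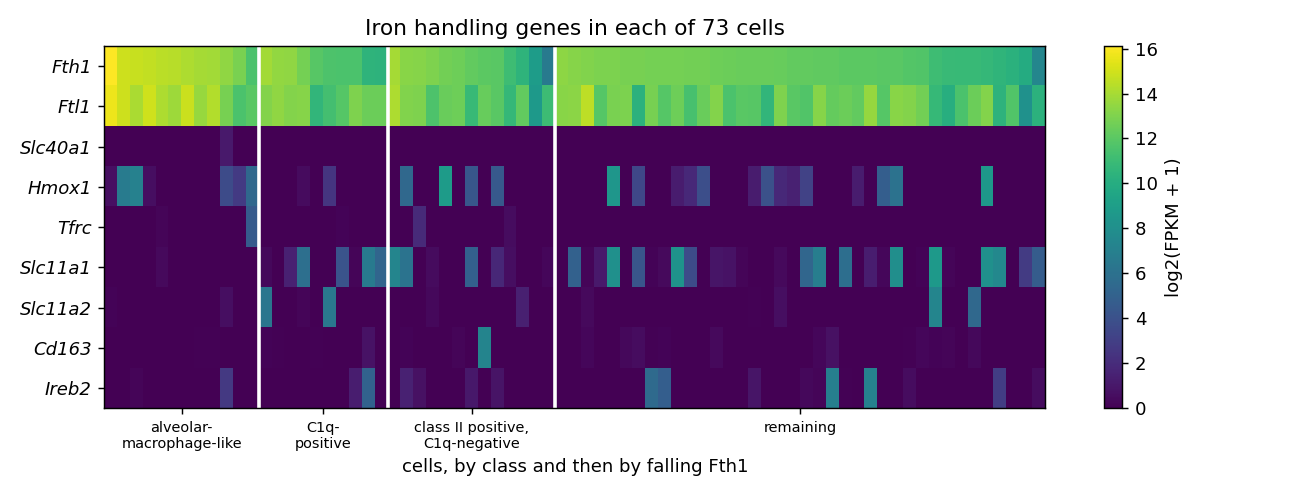
Level of the 9 genes (rows) in each of 73 cells (columns), as log2(FPKM + 1) on the colour scale; cells are grouped by class, divided by white lines, and ordered by falling Fth1 within each. Fth1 and Ftl1 fill every column, the other 7 genes appear in scattered cells, and Slc11a1 is below an FPKM of 1 in all 12 alveolar-macrophage-like cells.

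The 7 sparse genes were seldom found together. Of 73 cells, 25 held none of them, 31 held 1, 14 held 2 and 3 held 3. Of 21 pairs of these genes, 13 were never found in the same cell. The most frequent pair was Hmox1 with Slc11a1, in 10 cells against 8.22 if they were detected independently, and all 10 lay outside the alveolar-macrophage-like cluster, where 7.79 would be so. Slc11a1 with Ireb2 was found in 5 cells against 3.42. No difference is read from these counts, since most of the genes were found in few cells.

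Other genes of iron handling were taken from 7 lists with 63 genes, of which 61 were in the table, 13 reached an FPKM of 1 in no cell and 33 were detected in at least 8 cells. Of those 33, 10 (30.3%) were higher in the alveolar-macrophage-like cells by 1 or more on the log2 scale and 1 (3.03%) was lower, beside the 18.2% and 9.49% over all genes. Their median difference was 0.22, beside 0.10.

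Among the list genes that were higher, Ncoa4 had the largest difference. This gene encodes the receptor that takes ferritin to the lysosome for iron release. It was found in all 12 cells of the cluster and in 11 of 61 others, with mean FPKM 113 ± 165 (SD, n = 12) against 12.4 ± 42.6 (SD, n = 61) and a log2 difference of 4.64. Pcbp1, a chaperone that hands iron to ferritin, was found in 11 of 12 and 39 of 61 cells (difference 2.58), whereas its relative Pcbp2 was found in 4 of 12 and 27 of 61 (difference -0.59, or -1.15 without cell 55). Of the storage and delivery list 3 genes were detected in at least 8 cells. Of them 2 were higher and 0 were lower, too few to set against the shares over all genes. Without cell 6, the highest, the Ncoa4 mean of the cluster was 69.2.

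In the uptake list only Trf, the gene of transferrin itself, met the detection rule. It was found in 11 of 12 and 24 of 61 cells, with mean FPKM 169 ± 219 (SD, n = 12) against 75.3 ± 245 (SD, n = 61) and a log2 difference of 3.45. Here the SD exceeded the mean in both groups, and without cell 95 the mean of the others was 47.8. In the list of partners of export only Hfe met the rule (3 of 12 and 14 of 61 cells, difference -0.69), and the peptide hormone genes Hamp and Hamp2 reached an FPKM of 1 in no cell.

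Of 7 genes of haem handling detected in at least 8 cells, 3 were higher and 1 was lower, beside 18.2% and 9.49% of all genes. These are too few to set against those shares. Hp, which encodes haptoglobin, the plasma protein that captures haemoglobin, was found in none of the cluster (0 of 12, so that a share of up to 25% remains possible) and in 45 of 61 others. Its mean FPKM was 0.0556 against 305 ± 377 (SD, n = 61), and its log2 difference, -5.62, was among the lowest of the 6151 (rank 6138). Blvra, which turns the biliverdin made by haem oxygenase into bilirubin, was found in 9 of 12 and 26 of 61 cells (difference 2.08). Hmox2, the constitutive haem oxygenase, was found in 6 of 12 and 30 of 61 cells (difference 0.04), and Blvrb in 3 of 12 and 16 of 61 (difference 0.0045).

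The higher genes Alas1 (11 of 12 and 14 of 61 cells, difference 4.39), the first enzyme of haem synthesis, and Lrp1 (11 of 12 and 34 of 61, difference 1.44), the receptor for haem bound to haemopexin, complete the 3. Of the sensing list 3 genes were detected in at least 8 cells. Among them Aco1, the partner of Ireb2 in binding the hairpins, was found in 6 of 12 and 7 of 61 cells. Its mean FPKM was 23.9 ± 34.6 (SD, n = 12) against 8.65 ± 37.2 (SD, n = 61), with a difference of 1.95. Without cell 34 the mean of the others was 4.56. Fbxl5, which marks the Ireb2 protein for destruction when iron is plentiful, was found in 9 of 12 and 33 of 61 cells (difference 0.26), and Hif1a in 7 of 12 and 28 of 61 (difference 0.44).

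Of 8 mitochondrial iron genes detected in at least 8 cells, 1 was higher and 0 were lower, beside 18.2% and 9.49% of all genes. The higher gene was Glrx5, which helps to build iron-sulphur clusters (5 of 12 and 9 of 61 cells, difference 1.11); without any one of cells 17, 35 and 87 its difference was under 1, at the lowest 0.70. The importer Slc25a37 was found in 2 of 12 and 19 of 61 cells (difference -0.56), its relative Slc25a28 in 1 of 12 and 11 of 61 (difference -0.61), and the scaffold Iscu in 4 of 12 and 20 of 61 (difference 0.22). Cisd1 was found in 5 of 12 and 19 of 61 cells (difference -0.05).

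Ferritin and Hmox1 genes are known targets of the activator NRF2, encoded by Nfe2l2, and of the haem-sensing repressor BACH1. Of that list 10 genes were detected in at least 8 cells. Among them 2 were higher, near the 18.2% of all genes that were higher, and 0 were lower, beside 9.49%. Bach1 was found in 3 of 12 and 28 of 61 cells, with a difference of -0.97, just short of -1. Without any one of 23 single cells that difference was past -1, at the lowest -1.33. Prdx1, a peroxide-reducing enzyme, was found in 12 of 12 and 58 of 61 cells, with mean FPKM 2218 ± 3414 (SD, n = 12) against 535 ± 449 (SD, n = 61) and a difference of 2.24; without cell 6, at 12582, the mean of the 12 was 1276 and the difference stayed at 1.93 or more whichever cell was left out. Txnrd1, thioredoxin reductase, had a difference of 1.08 (10 of 12 and 37 of 61 cells), which was under 1 without any one of cells 6, 12, 36, 55 and 87, at the lowest 0.66. Slc7a11, the cystine importer, was found in 5 of 12 and 33 of 61 cells (difference -0.49, or -1.08 without cell 6). Nfe2l2 itself was found in 11 of 12 and 58 of 61 cells, with a difference of -0.88 that was past -1 without any one of cells 6, 12 and 21, at the lowest -1.23.

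**Figure D4:**
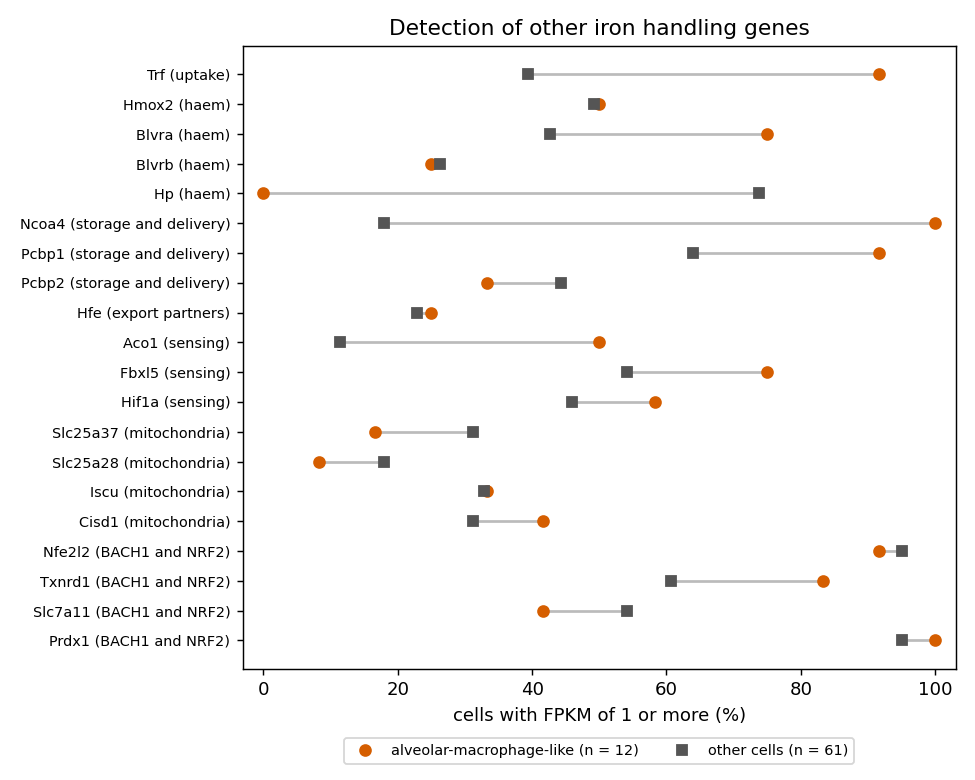
Share of cells with an FPKM of 1 or more (horizontal axis, %) for up to 4 genes of each list, chosen by mean level among those detected in at least 8 cells; circles are the 12 alveolar-macrophage-like cells, squares the other 61, and each grey line joins a pair. Ncoa4 (12 of 12 and 11 of 61 cells) and Hp (0 of 12 and 45 of 61) are the pairs farthest apart.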

How the data were processed

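Per the labels' protocols, cells were isolated on the Fluidigm C1 system, cDNA of polyadenylated RNA was amplified with a SMARTer kit, and Nextera XT gave the libraries. CASAVA 1.8, TopHat2 2.1.0, Cufflinks 2.2.1 and Cuffnorm are named in the submitters' processing notes, as is build mm10. Which annotation and which cell filters were applied is not given in the sources used here. Deposited by the authors were a table of FPKM values and a table whose signal is fragment counts divided by a factor per cell. Fragments were estimated by dividing that deposited signal by the step of each cell; of 99703 values between 0.5 and 20 steps, 99.6% lay within 0.1 of a whole number. Of 100 spike-in rows 1 held values; all were kept out of gene totals, and that single row gave the mouse fragments per spike-in fragment; 0 columns of cell values were left unused.

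Detection meant an FPKM of at least 1. Clustering (Python 3.11.15, SciPy 1.17.1, scikit-learn 1.9.0) used 1000 variable genes detected in at least 8 cells, log2(FPKM + 1), 10 principal components and Ward linkage, cut at the best mean silhouette (0.246, 3 clusters) among cuts of up to 6 clusters with at least 5 cells each. Genes were described as higher or lower at a difference of 1 in mean log2(FPKM + 1). No doublet caller was run, since the chip is meant to hold 1 cell at a site and the cells are few. Shares carry exact Clopper-Pearson 95% intervals, and a count of 0 is given with the share that 3 cells would make; both cover counting error only. The differences and the estimate of the step of each cell were tested on simulated data, and the clustering was not. With 1 mouse and 1 group no p-value was computed.

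The 9 genes, the lists and the classes were chosen with earlier results of these data known. By the rule for naming genes, the text names all 9, up to 4 genes of each list by mean FPKM (of genes found in 8 cells or more), the 5 genes with the highest rho for each ferritin chain, and markers. Outside that rule, and chosen after their values were seen, are Lrp1, Alas1 and Glrx5 (past the bound) and Bach1 (just short of it). So are Hamp and Hamp2 (never detected), the closest genes outside the alveolar-macrophage-like cells and the closest genes after rescaling.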

Additional observations from a re-analysis of the deposited data

How the results depend on the processing

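Of 132 alternative values for 24 results, 123 stayed within the spread between cells, for shares of cells within their 95% interval, or, for counts of genes, within 1.5 times; intervals of rare genes are wide, and Tfrc went from 2.74% to between 1.37% and 6.85%, Cd163 from 1.37% to 2.74% when thinned and Ireb2 from 13.7% to 6.85% at an FPKM of 10 inside theirs. The alternatives were other detection thresholds, a pseudocount of 0.1, FPKM rescaled to one total per cell, cells thinned to one depth, the fragment table, no filter on low genes, more variable genes, fewer components, k-means and leaving out the cells with endothelial markers; leaving out cell 6, the rho without the endothelial cells, thinned detection of the list genes and leaving out each cell in turn were added after the data were seen. The same 12 alveolar-macrophage-like cells were found by each of the 3 other clusterings. The differences under those clusterings therefore equalled the main ones and count among the 123 by construction. The spread between cells is wide. With a pseudocount of 0.1 the difference went from 0.98 to 1.69 for Hmox1 and from -2.24 to -3.78 for Slc11a1, and both count as within it. The difference ran from 1.98 to 2.17 for Fth1 and from 1.60 to 1.76 for Ftl1, and from -3.78 to -2.23 for Slc11a1; with each cell left out in turn the highest was 2.40 for Fth1, 1.97 for Ftl1 and -2.13 for Slc11a1. Of the list genes 1 was lower, but 3 with a pseudocount of 0.1 and 2 after rescaling; the cause was not tested. Sparse genes depend on the threshold: at any value above 0 Slc11a1 was in 56.2% of cells, Cd163 in 31.5%, Ireb2 in 27.4% and Slc11a2 in 16.4%, and at an FPKM of 10 Hmox1 was in 19.2% and Slc40a1 in 0%. With 12 cells of 1 mouse in the main class, an absence there was not detectable below a share of 25%.

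No paired analysis was possible because all cells belong to 1 group.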
